A study of Mus musculus with 6 samples.

Results

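Ptprt and 7 related receptor-type protein tyrosine phosphatase genes were followed in RNA-seq data of the mouse dorsal hippocampus after knockdown of the long non-coding RNA Snhg11. The 8 genes were Ptprt, Ptprm, Ptprk, Ptpru, Ptprg, Ptprn, Ptprn2 and Ptpro, and all 8 were among the 19969 genes with enough counts to be tested, out of the 55141 identifiers in the files that the annotation names. Ptprt was selected on its difference between the same 6 samples and the other 7 were set beside it as relatives. The differences between the groups in these 8 genes are therefore given as a description with standard errors and without a test. The samples came from WT mice aged 4 months that were littermates of Ts65Dn mice. In 3 mice Control-ASO was injected into the dentate gyrus, an antisense oligonucleotide with the bases of Snhg11-ASO in scrambled order, and in 3 mice Snhg11-ASO, which pairs with the Snhg11 RNA and directs its cleavage. Each hemisphere received 50 μg, and the dorsal hippocampus, all its cell types included, was taken 3 days later. The labels name these groups by the injected ASO, and give the genotype as WT for the first and as Snhg11 KD for the second. No label says that samples came from shared litters or days.

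Receptor tyrosine phosphatases span the cell membrane and remove phosphate groups from tyrosine residues, opposing tyrosine kinases. Ptprt, Ptprm, Ptprk and Ptpru form the group with an extracellular MAM domain. The proteins of this group bind copies of themselves on neighbouring cells and act on cadherin and catenin complexes at cell contacts. Ptprt is known for its expression in the nervous system and its role in synapse formation. Ptprg carries a carbonic anhydrase-like domain that binds contactins, Ptprn and Ptprn2 sit in the membrane of dense-core vesicles and have lost tyrosine phosphatase activity, and Ptpro is known from kidney podocytes and as a phosphatase of Eph receptors.

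The 8 genes share a phosphatase signature, a histidine and a cysteine followed after 5 residues by an arginine. The bases that code for it, from the GENCODE M21 transcripts on GRCm38, are shown for each gene because all 8 hold this signature. Capitals mark the 8 codons of the signature, 5′ to 3′ on the coding strand.
Ptprt: gtcCATTGCAGTGCTGGAGCCGGGAGGact
Ptprm: gtaCACTGCAGTGCTGGAGCAGGAAGGaca
Ptprk: gtaCACTGCAGTGCTGGTGCTGGGCGCaca
Ptpru: attCACTGCAGTGCAGGAACTGGCCGCaca
Ptprg: gtgCACTGCAGCGCTGGTGTGGGCAGGaca
Ptprn: gtgCACTGCAGTGACGGTGCAGGGAGGaca
Ptprn2: gtcCATTGCAGTGACGGCGCCGGCAGGagt
Ptpro: atcCACTGCAGTGCGGGTGTGGGACGGaca

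Of the 24 signature bases, 21 were the same as in Ptprt in Ptprm, 20 in Ptprn2, 19 in Ptprk and Ptprn, 18 in Ptprg and 17 in Ptpru and Ptpro. These counts did not follow the family, since Ptpru, of the MAM group, had fewer than Ptprn2 and Ptprn. In all 8 genes an intron interrupted the stretch after base 11 of the 30 printed. In Ptprt, on the minus strand, these bases lie at chr2:161558820-161558830 in exon 23 and chr2:161555531-161555549 in exon 24 of 31. The signature occurred 2 times in the proteins of the MAM group and 1 time in those of the other 4 genes. This is a count of the signature and not of phosphatase domains. Over the whole protein, Ptprt was 67.3% identical to Ptprm, 59.2% to Ptprk and 52.6% to Ptpru at the aligned positions, against 28.6% to 30.5% for the 4 genes outside the group. Ptprn and Ptprn2 were 49% identical to each other. No stretch of 50 bases, the length of a read, was shared between the transcripts of any 2 of the 8 genes. Ptprm shared 4.54% of its 50-base stretches with 1 other gene, AC139750.1.

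The 8 genes lie on 8 chromosomes of GRCm38 and differ widely in genomic span, the distance from the first to the last annotated base. Ptprt (ENSMUSG00000053141; minus strand, chr2:161521990-162661147) has the longest span of the 8 at 1139 kb. It lies 3.14 Mb from Snhg11 on the same chromosome. Ptprn2 (chr12:116485720-117276849) spans 791 kb, Ptprg (chr14:11553532-12242041) 689 kb, Ptprm (chr17:66666947-67354457) 688 kb and Ptprk (chr10:28074820-28597397) 523 kb. Ptpro (chr6:137252319-137463233) spans 211 kb, Ptpru (chr4:131768457-131838288) 69.8 kb and Ptprn (chr1:75247027-75264502) 17.5 kb. The merged exons are much shorter and more alike, from 4.25 kb in Ptprn to 13.3 kb in Ptprk.

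The counts of read pairs on genes summed to 28951250 to 34293344 in the Control-ASO and to 38556524 to 43997537 in the Snhg11-ASO libraries. Levels are given as CPM, the count of a gene scaled to a common library total (TMM scaling). Snhg11, the targeted RNA, had 551, 436 and 209 CPM in the Control-ASO libraries, in the order of replicates 1, 2 and 3 used throughout. The Snhg11-ASO libraries had 139, 65.4 and 69.4 CPM. Every Snhg11-ASO library lay below every Control-ASO library, and edgeR's quasi-likelihood test put the log2 fold change at -2.13 (standard error 0.43) with an adjusted p of 0.395. The two-sided exact permutation test gave p = 0.1, the smallest that 3 against 3 samples allow, and DESeq2 an adjusted p of 3.8e-05. Snhg11-ASO replicate 1 stood apart from the other libraries, at -49.8 on a first principal component on which the other 5 lay between -6.4 and 22. Values without it are given where it matters. Neuronal, granule cell, interneuron and glial markers were present in every library, which fits the tissue label.

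Among the 8 genes, Ptprt differed most between the groups. It was counted 4580, 4762 and 5472 times in Control-ASO replicates 1, 2 and 3, which is 156, 142 and 162 CPM. In Snhg11-ASO replicates 1, 2 and 3 it was counted 3365, 3967 and 3828 times, which is 88.3, 94.9 and 87.7 CPM. The groups did not overlap, and the libraries of each group lay close together. The mean was 153 ± 10.7 (SD, n = 3) CPM in Control-ASO and 90.3 ± 4.03 (SD, n = 3) CPM in Snhg11-ASO, or 58.9% of the Control-ASO mean. The log2 fold change was -0.76 (standard error 0.09), and it stayed between -0.82 and -0.72 when each library was left out in turn. Without Snhg11-ASO replicate 1 it was -0.75. In bulk tissue, fewer cells of a type and less RNA per cell cannot be told apart.

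Of its MAM-domain relatives, Ptprm, which binds cadherin complexes in vessels and neurons, was also lower in every Snhg11-ASO library. It was at 37.5, 28.4 and 34.3 CPM in the Control-ASO and 24.4, 25.8 and 25.3 CPM in the Snhg11-ASO libraries. Control-ASO replicate 2 came closest to the Snhg11-ASO libraries, and the log2 fold change was -0.41 (standard error 0.13). Ptprk, a phosphatase of epithelial cell contacts, was at 75.6, 50.4 and 77.3 CPM against 75.7, 60.4 and 56.5 CPM. Its groups overlapped, with a log2 fold change of -0.08 (standard error 0.19), and the direction was not stable, from -0.25 without Control-ASO replicate 2 to 0.19 in a fit that took out the trend with genomic span and kept the replicate number as a block. Ptpru, another adhesion receptor of the MAM group, was at 44.6, 35.1 and 35.0 CPM against 45.7, 40.3 and 38.7 CPM. Its groups overlapped too, with a log2 fold change of 0.12 (standard error 0.13).

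Outside the MAM group, the contactin receptor Ptprg was at 141, 113 and 116 CPM in the Control-ASO and 93.2, 108 and 92.1 CPM in the Snhg11-ASO libraries. The groups did not overlap, although Snhg11-ASO replicate 2 came close to Control-ASO replicate 2, and the log2 fold change was -0.33 (standard error 0.12). Ptprn2, a dense-core vesicle protein, was at 222, 207 and 204 CPM against 169, 150 and 129 CPM. Its groups were well apart, with a log2 fold change of -0.50 (standard error 0.12) that was -0.60 without Snhg11-ASO replicate 1. Its close relative Ptprn was at 216, 240 and 180 CPM against 301, 206 and 201 CPM, with Snhg11-ASO replicate 1 above all other libraries. Its log2 fold change was 0.15 (standard error 0.19) with all libraries and -0.06 without that replicate. Ptpro was at 53.2, 56.0 and 41.4 CPM against 26.2, 49.1 and 38.6 CPM, with that same replicate lowest. Its groups overlapped, and its log2 fold change of -0.40 (standard error 0.24) was -0.19 without Snhg11-ASO replicate 1.

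**Figure D1:**
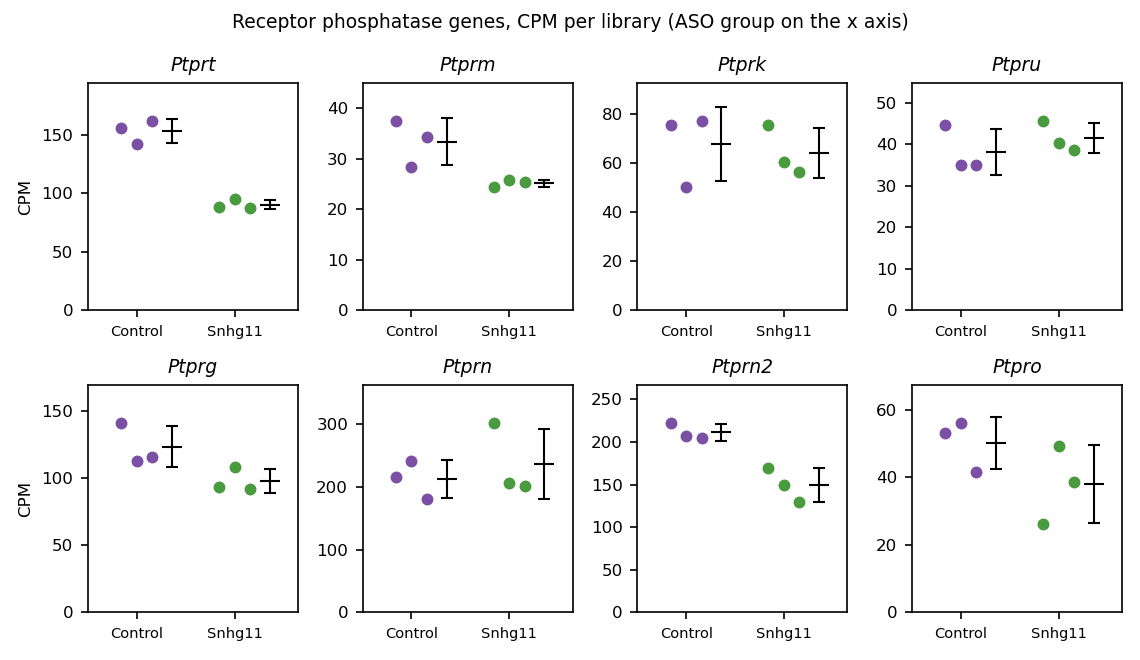
CPM of each gene (y axis, starting at 0) in the 3 Control-ASO (purple) and 3 Snhg11-ASO (green) libraries, 1 dot each in replicate order from left to right, with the group mean and SD in black. The groups are apart in Ptprt, Ptprm, Ptprg and Ptprn2, and overlap in Ptprk, Ptpru, Ptprn and Ptpro.

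The Snhg11-ASO libraries lay below the Control-ASO libraries without overlap in 4 of the 8 genes, and above them in 0. Among all genes tested the corresponding shares were 7.7% and 7.73%. Because Ptprt was picked on this contrast, nothing is read from the count. In edgeR 0% of all genes had an adjusted p under 0.05, while 4.43% of all genes were lower and 3.68% higher at an unadjusted p under 0.05. DESeq2 gave an adjusted p to 18570 genes, and of these it called 0.802% as lower and 0.549% as higher at an adjusted p under 0.05. The median log2 fold change was -0.37 over the 8 genes, -0.33 over the 7 relatives and 0.01 over all genes tested. In the fit without Snhg11-ASO replicate 1 the median of the relatives was -0.21.

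Ptprt was also lower relative to its relatives within the libraries. The log2 ratio of Ptprt to Ptpru was 1.80, 2.01 and 2.21 in the Control-ASO and 0.95, 1.24 and 1.18 in the Snhg11-ASO libraries. The ratio to Ptprk was 1.04, 1.49 and 1.07 against 0.22, 0.65 and 0.63, and to Ptprm, the nearest relative in sequence, 2.05, 2.32 and 2.24 against 1.85, 1.88 and 1.79. For 6 of the 7 relatives the ratio was lower in every Snhg11-ASO than in any Control-ASO library, and for Ptpro the groups overlapped. Ptprt is part of every ratio and was picked on this contrast, so nothing is read from this count. Such ratios show unequal change and not which of the genes moved. Against the median of the 7 relatives, with each gene centred on its Control-ASO mean, Ptprt stood at -0.15, 0.00 and 0.17 in the Control-ASO and at -0.47, -0.55 and -0.44 in the Snhg11-ASO libraries. The difference between the fold change of Ptprt and the median of its relatives lay between -0.54 and -0.34 under all 18 alternatives, with -0.43 from all libraries.

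Levels of different genes were compared per length, as CPM per kb of merged exons. In the Control-ASO libraries Ptprn was highest at 49.9 ± 7.14 (SD, n = 3) CPM per kb, followed by Ptprn2 at 24.5 ± 1.16. Ptprt at 12.2 ± 0.845 and Ptprg at 11.2 ± 1.40 came next, then Ptpro at 7.47 ± 1.16, Ptpru at 5.38 ± 0.774, Ptprk at 5.08 ± 1.13 and Ptprm at 3.78 ± 0.525. Ptprn and Ptprn2 kept their places in all 6 libraries, with ranges that did not overlap with that of the gene below. Ptprt and Ptprg did not keep 1 order, and Ptprt was the higher of the pair in 2 of the 3 Control-ASO libraries and in none of the Snhg11-ASO libraries. The ranges of Ptpro, Ptpru and Ptprk overlapped, so their order is not resolved. Ptprm was below Ptprk in all 6 libraries.

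Within the MAM group, Ptprt accounted for the largest share of the summed CPM per kb in every library. Its share was 43.3%, 48.5% and 46.9% in the Control-ASO and 32.0%, 36.5% and 35.7% in the Snhg11-ASO libraries. The share of Ptpru was higher in every Snhg11-ASO library, at a mean of 28.2% ± 1.04 (SD, n = 3) against 20.4% ± 2.19. That of Ptprk was also higher in every Snhg11-ASO library, at a mean of 23.2% ± 2.43 (SD, n = 3) against 19.1%, while that of Ptprm overlapped. Since shares add up to the whole, a smaller share of Ptprt raises the others without a change in their own levels.

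**Figure D2:**
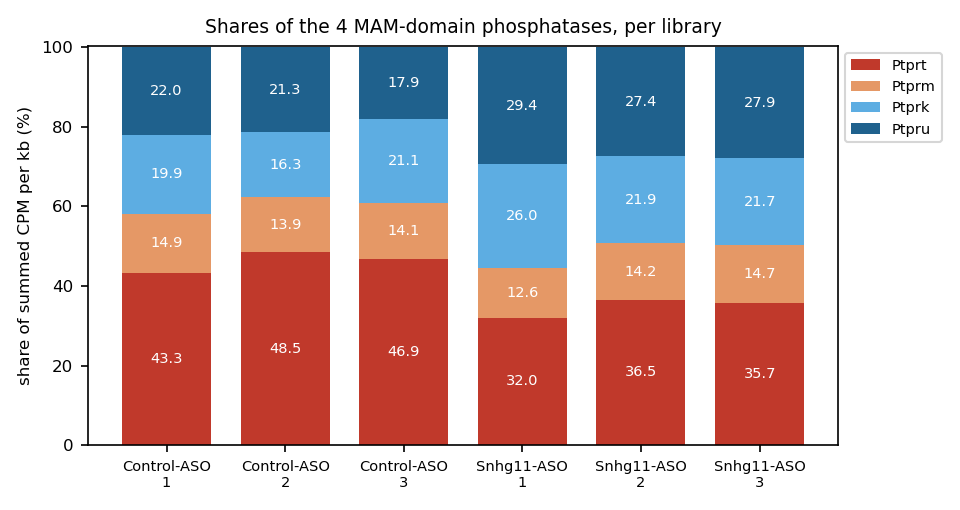
Share of Ptprt, Ptprm, Ptprk and Ptpru (stacked, in percent) in the summed CPM per kb of these 4 genes in each of the 6 libraries. Ptprt takes 43.3% to 48.5% in the Control-ASO and 32.0% to 36.5% in the Snhg11-ASO libraries.

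Over all genes tested, the log2 fold change was lower in classes of longer genomic span. Of the 57 genes tested that span 1000 kb or more, 94.7% had a log2 fold change below 0, with a median of -0.48, and in 73.7% every Snhg11-ASO library was below every Control-ASO library. Among the 166 genes of 500 to 1000 kb the median was -0.33, and among the 15163 genes under 50 kb it was 0.02. Ptprt, at -0.76, was lower than its class, in which 14 of 57 genes had a lower value. Ptprn2 at -0.50 and Ptprm at -0.41 were somewhat below the median of their class, Ptprg at -0.33 was at the median, and Ptprk at -0.08 was above it, with 132 of 166 genes lower. Ptpru and Ptprn, the genes of the shortest span, were at 0.12 and 0.15 in classes with medians of 0.03 and 0.02. Ptpro, of 211 kb, was at -0.40 in a class with a median of -0.13, where 130 of 763 genes were lower, and by this share it lay furthest down its class among the 8. This place rests in part on Snhg11-ASO replicate 1, without which Ptpro was at -0.19. With the trend of each library over span taken out through offsets, the fold change on the log2 scale was -0.39 (standard error 0.09) for Ptprt, -0.18 (0.11) for Ptprn2, -0.11 (0.12) for Ptprm and -0.04 (0.09) for Ptprg. It was 0.18 (0.20) for Ptprk, 0.11 (0.13) for Ptpru, 0.13 (0.20) for Ptprn and -0.30 (0.23) for Ptpro. With the correction Ptprt thus still had the lowest value of the 8, with Ptpro next.

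**Figure D3:**
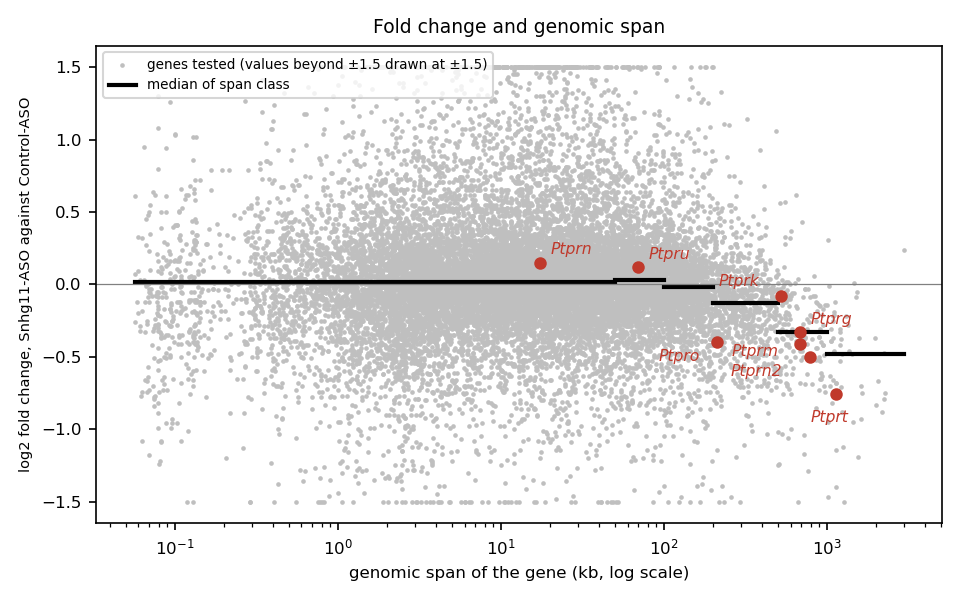
Log2 fold change of Snhg11-ASO against Control-ASO (y axis) against the genomic span of each gene in kb (x axis, log scale) for the genes tested (grey) and the 8 receptor phosphatase genes (red). Black lines are the medians of 6 span classes, which fall from 0.02 under 50 kb to -0.48 at 1000 kb or more, and Ptprt lies below the line of its class at -0.76.

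**Figure D4:**
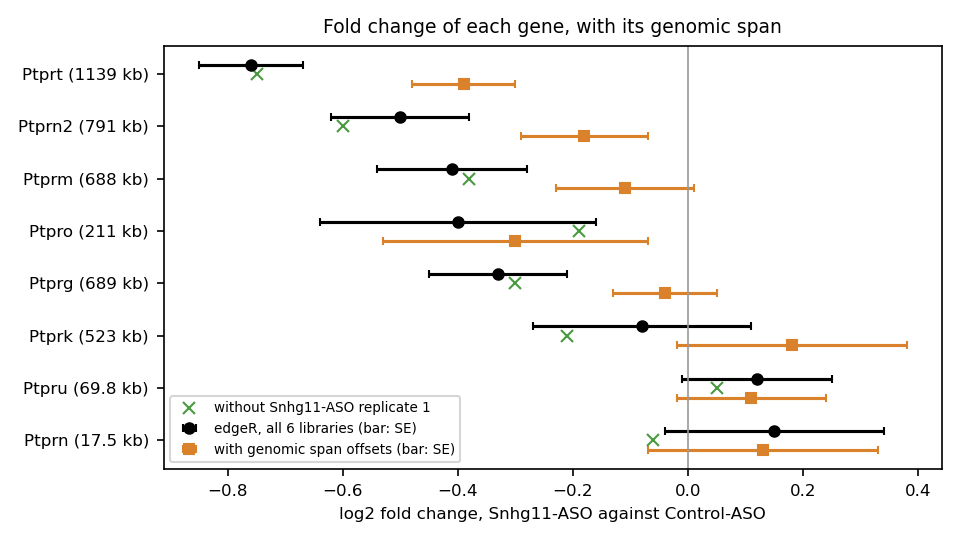
Log2 fold change of each gene (x axis; genomic span beside each name) from all 6 libraries (black, bar is the standard error), with span offsets (orange, bar is the standard error) and without Snhg11-ASO replicate 1 (green cross). The offsets bring Ptprt from -0.76 to -0.39 and leave Ptpru and Ptprn nearly where they were.

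Some of the 8 genes hold other annotated genes between their first and last base. Whether these lie in introns was not checked. On the strand of the host with a mean count of at least 10 there were 5, namely Gm48602, Gm48601 and Gm48600 in Ptprg, AC109261.4 in Ptprm and Gm17807 in Ptprn2, and there was none in Ptprt. Reads from unspliced RNA of the host can be counted on such genes. Their log2 fold changes were -0.51, -0.54 and -0.47 for those in Ptprg, -0.32 for AC109261.4 and -0.50 for Gm17807, all below 0, with adjusted p-values from edgeR from 0.694 to 0.809. The groups overlapped in all of them but Gm17807, a processed pseudogene with 33, 27 and 34 counts in the Control-ASO and 21, 30 and 35 counts in the Snhg11-ASO libraries, or 1.12, 0.803 and 1.01 against 0.551, 0.718 and 0.802 CPM. On the opposite strand of Ptprn2, Gm10421 was counted 8 to 21 times, where edgeR gave an adjusted p of 0.660 and a log2 fold change of 0.65 with a standard error of 0.32. Counts on the strand opposite to the 8 genes were rare, at no more than 0.450% of the stranded counts of a gene in any library, except for 1.58% for Ptpro in Snhg11-ASO replicate 1.

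The other 13 receptor phosphatase genes did not share one direction. With 7 lower and 6 higher, their median log2 fold change was -0.06. At an unadjusted p under 0.05, 2 were lower and 0 higher, against 4.43% and 3.68% of all genes tested. Ptprd, an adhesion receptor of presynaptic terminals, spans 2271 kb and was at 252, 248 and 287 CPM against 117, 190 and 162 CPM (adjusted p = 0.464 from edgeR). It had a log2 fold change of -0.75 (standard error 0.18), close to that of Ptprt. Ptprr, a phosphatase of MAP kinases, spans 257 kb and was at 18.3 ± 0.884 against 14.2 ± 2.10 CPM (SD, n = 3 per group; log2 fold change -0.37, adjusted p = 0.588 from edgeR). No member of the list passed the threshold in edgeR, and 1, Ptprd, did so in DESeq2.

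Of 23 genes for partners and substrates of the MAM group, 10 were lower and 13 higher, with a median of 0.01. At an unadjusted p under 0.05, 3 were lower and 2 higher, against 4.43% and 3.68% of all genes tested. No gene of the list had an adjusted p under 0.05 in edgeR, while DESeq2 called 1, Nrxn3, with an adjusted p of 0.0277. The lower ones included Nrxn3, a neurexin, a family that Ptprt binds at synapses, at 281 ± 45.6 against 173 ± 27.2 CPM (SD, n = 3 per group; log2 fold change -0.70, adjusted p = 0.452 from edgeR). Ctnna2, the alpha-catenin of neurons, was at 111 ± 8.66 against 80.5 ± 12.9 CPM (log2 fold change -0.47, adjusted p = 0.507 from edgeR). These genes span 1612 and 1098 kb. Stat3, a transcription factor that Ptprt dephosphorylates, was named after its values were seen as the highest of the list, at 48.3, 63.4 and 51.8 CPM against 219, 80.7 and 78.4 CPM. Snhg11-ASO replicate 1 was far above the rest, and edgeR gave a log2 fold change of 1.21 with an adjusted p of 0.551. The catenin gene Ctnnb1 was at 389 against 416 CPM and the neuronal cadherin gene Cdh2 at 88.4 against 88.9 CPM, in groups that overlapped.

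All 4 genes for contactins that bind Ptprg were lower. Cntn3, Cntn4, Cntn5 and Cntn6 did not overlap between the groups, with log2 fold changes from -1.47 to -0.68, and all 4 had an unadjusted p under 0.05 but none an adjusted p under it in edgeR. Of all genes tested, 7.7% were lower without overlap and 4.43% lower at an unadjusted p under 0.05. Without overlap the share was 22.1% among genes of 200 to 500 kb, the class of Cntn3 and Cntn6, and 73.7% among those of 1000 kb or more, the class of Cntn4 and Cntn5. Cntn4 was at 33.4, 38.0 and 35.6 CPM in the Control-ASO and 9.91, 13.9 and 14.7 CPM in the Snhg11-ASO libraries (adjusted p = 0.237 from edgeR). Cntn3 was at 30.1 ± 3.94 against 18.8 ± 3.92 CPM (SD, n = 3 per group; adjusted p = 0.492 from edgeR). DESeq2 called Cntn4 only. The difference of Cntn4 in these samples was known when the list was made, so it is no independent evidence, and the 4 genes span 371 to 1244 kb.

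Genes of the dense-core vesicle, where Ptprn and Ptprn2 reside, had a median of -0.05 on the log2 scale, and 9 of 15 were lower. The 2 at an unadjusted p under 0.05, Cadps and Cadps2, prime vesicles for release and were lower, at -0.30 and -0.41 (adjusted p-values of 0.551 and 0.586 from edgeR). These 2 genes span 451 and 577 kb, and 4.43% of all genes tested were lower at that unadjusted threshold. Of 4 substrates of Ptpro, 3 were lower, with a median of -0.16. Ntrk2, the receptor for BDNF, was at 529, 530 and 531 CPM in the Control-ASO and 407, 459 and 452 CPM in the Snhg11-ASO libraries (log2 fold change -0.27, adjusted p = 0.551 from edgeR). Ntrk3 was at 361 ± 57.7 against 306 ± 62.3 CPM (SD, n = 3 per group), in groups that overlapped.

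Across the 6 libraries and 11935 genes with a mean of at least 5 CPM, the genes with log2 CPM most like that of Ptprt included 3110080E11Rik (Pearson r = 0.9906), Caln1 (0.9856), Macrod2 (0.9836) and Ppp2r2b (0.9830). These 4 were lower in every Snhg11-ASO than in any Control-ASO library, as Ptprt was, and the correlation includes this difference between the groups. Their log2 fold changes were -0.80, -0.62, -0.83 and -0.49, and their spans 3.48, 478, 1998 and 422 kb. Among the relatives the correlation with Ptprt was 0.91 for Ptprm, 0.90 for Ptprn2, 0.84 for Ptprg, 0.59 for Ptpro, 0.24 for Ptprk, -0.39 for Ptprn and -0.40 for Ptpru.

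Markers of 2 cell types differed between the groups without overlap in their sums. Of single genes tested, 7.7% were lower and 7.73% higher without overlap, so nothing is read from this count. The summed level of 8 interneuron markers was 438 to 482 CPM in the Control-ASO and 366 to 427 CPM in the Snhg11-ASO libraries. Gad1 and Gad2, at Control-ASO means of 199 and 116 CPM, made up most of this sum. Of the 8 markers, 3 were lower without overlap, against 7.7% of all genes tested. By log2 fold change 7 were lower and 1, Npy, was higher at 0.24. Both markers of oligodendrocyte precursors, Pdgfra and Cspg4, were lower, with sums of 72.5 to 85.4 against 59.8 to 71.5 CPM. The sums of 4 general neuronal, 6 granule cell, 5 CA1 pyramidal, 6 astrocyte, 6 oligodendrocyte, 6 microglial, 6 endothelial and 6 choroid plexus markers overlapped between the groups, and no marker was at 0 throughout. The microglial sum was 135 CPM in Snhg11-ASO replicate 1 and 251 to 462 CPM elsewhere, and the choroid plexus sum ranged from 36.2 to 1891 CPM within the Control-ASO group. Their part in the differences of the phosphatase genes was not tested.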

How the data were processed

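RNA-seq counts of 6 dorsal hippocampi were used, 3 per group. Per the labels and the methods, the authors made stranded libraries from ribo-depleted RNA, aligned paired reads of 50 bases to mm10 (GRCm38) with STAR 2.5.2a, and deposited raw counts of read pairs per gene for each sample. The layout is that of the aligner's own counts, while the methods name Rsubread; the annotation used for counting is not given in the sources used here. Counts from the reverse strand, column 4 of each file, held 96.2% to 96.8% of the stranded counts. Summary lines that name no gene held 43.5% to 51.4% of read pairs and were left out.

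Symbols, positions and exons came from GENCODE M21, which matched 55141 of the 55401 identifiers. Genes were filtered with filterByExpr (minimum count 10), scaled with TMM factors and compared with edgeR 4.0.16 (quasi-likelihood test, Benjamini-Hochberg adjustment over all 19969 genes, threshold 0.05) in R 4.3.3. Standard errors were obtained from the log2 fold change and the F statistic. A prior count of 2 went into log2 CPM. DESeq2 1.42.0 was an alternative. The span correction subtracted each library's loess trend (span 0.3) of log2 CPM, centred per gene, over log10 genomic span through offsets. Proteins were translated from the longest complete coding sequence and aligned with Biopython 1.88. Scripts were tested on simulated counts.

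The study removed 1 Snhg11-ASO sample that it does not name; all were kept here. The main fit did not pair samples, and the replicate number entered as a block only in alternative fits. Same-numbered samples deviated together from their group means (r = 0.297, 0.179 and 0.103). These values do not settle whether the numbers mark pairs. No label says so, and Control-ASO replicate 2 correlated slightly more with Snhg11-ASO replicate 3 (r = 0.188) than with its own number. Members and lists were chosen with earlier results of these data known. Genes named are the 8 members, Snhg11, the 2 genes of smallest p in each partner list, genes nested on the host's strand with a mean count of at least 10, and the 5 most like Ptprt, of which 1 is not reported here; others are named as examples after their values were seen. The methods give 3 mice per group but no label ties a sample to a mouse, so p-values measure the spread between these samples, which may be technical.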

Additional observations from a re-analysis of the deposited data

How the results depend on the processing

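Over 18 alternatives, the log2 fold change of Ptprt stayed negative, from -0.82 to -0.38. It was -0.39 with span offsets and -0.38 with span offsets and the replicate block, where the median of the 7 relatives was -0.04 and -0.03. Leaving out 1 library in edgeR gave -0.82 to -0.72 for Ptprt, -0.41 to -0.21 for the median of the relatives, -0.53 to -0.34 for Ptprt minus that median, -2.56 to -1.83 for Snhg11 and 0 to 2 genes with an adjusted p under 0.05; the 2 genes came without Snhg11-ASO replicate 1. DESeq2 called 251 genes, and on counts of both strands 314, 253 and 192 without Snhg11-ASO replicates 1, 2 and 3; without replicate 1 the median of the relatives there was -0.19. Snhg11 passed in DESeq2 with all samples (-2.13), and without Snhg11-ASO replicates 1, 2 and 3 (-2.54, -1.97 and -2.0). The replicate block alone left Ptprt at -0.76 and changed no call. The design has 3 mice per group, which limits the precision of every value; the cause of the change with genomic span was not tested.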
